A study of Mus musculus with 8 samples.

Results

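The Dlk1-Dio3 cluster is an imprinted array of microRNA (miRNA) hairpins on mouse chromosome 12. Its members were chosen by name, as the rows of the deposited count table whose precursor is 1 of 52 listed hairpins. All 52 were in the table, with 102 mature miRNAs (arms) of the 1978 in the table. Of these 102, 42 had a count in at least 1 library after rounding, from 31 hairpins, and 60 had none. Small RNA was sequenced from CD8+ T cells, a class of killer lymphocytes, enriched with magnetic beads from spleens of C57BL/6 mice, an inbred strain. There were 4 libraries from neonatal mice aged 5 to 7 days and 4 from adult mice aged 12 weeks. No genotype or treatment differed between the groups, and the labels state neither pooling nor separate animals for the 4 samples of an age. The p-values therefore cover the spread among these samples alone, and that spread may be technical.

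In an imprinted locus the allele that is expressed depends on the parent it came from. At Dlk1-Dio3 the miRNAs come from the maternal chromosome, together with the noncoding RNAs Meg3 (also called Gtl2), Rian and Mirg, whereas the paternal chromosome expresses the protein-coding genes Dlk1, Rtl1 and Dio3. The miRNAs are known from embryo, placenta, brain and blood stem cells. The allele of origin was not measured in these libraries.

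The members that had enough counts to be tested, with miR-382-5p, which fell just short, are shown as RefSeq mature sequences (GRCm38.p6), with bases 2 to 8 (the seed, which pairs with target messenger RNAs) in capitals. They show that the tested members do not form a seed family.
miR-493-5p: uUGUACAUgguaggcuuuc
miR-433-3p: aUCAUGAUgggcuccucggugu
miR-127-3p: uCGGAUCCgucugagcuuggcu
miR-379-5p: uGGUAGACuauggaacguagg
miR-323-3p: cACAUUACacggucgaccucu
miR-494-3p: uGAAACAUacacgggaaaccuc
miR-543-3p: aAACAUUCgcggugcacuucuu
miR-382-5p: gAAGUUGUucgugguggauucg
miR-409-3p: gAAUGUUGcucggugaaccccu
miR-412-5p: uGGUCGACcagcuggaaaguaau
miR-369-3p: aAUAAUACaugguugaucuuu
No tested member shared its seed with another miRNA that had a count, among those with a RefSeq sequence. The seed of miR-543-3p is the same 7 letters as bases 1 to 7 of miR-181a-5p, an abundant lymphocyte miRNA, so the pair is offset by 1 base. Among members with fewer counts, miR-379-3p and miR-411-3p have the same seed, and their sequences are shown for the likeness of neighbouring hairpins.
miR-379-3p: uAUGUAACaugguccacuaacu
miR-411-3p: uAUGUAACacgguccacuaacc

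The listed hairpins span 109563692 to 109747960 on chromosome 12 (184 kb), as positioned for 50 of the 52. The first 13, on the side of Meg3 and Rtl1, lie apart from the other 39, which form the array from miR-379 to miR-410, with a gap of 90.7 kb between miR-370 and miR-379. By the GENCODE annotation, 6 of the 13 lie opposite the coding exon of Rtl1, among them miR-127 (109592846 to 109592915) and miR-433 (109591715 to 109591838), and 14 of the array lie in exons of Mirg, among them miR-382, miR-409, miR-412 and miR-369 (109743418 to 109743496). miR-493 (109580233 to 109580315), miR-379 (109709060 to 109709125), miR-323, miR-494 and miR-543 are intergenic. An opposite-strand position is what lets miR-127 pair perfectly with the Rtl1 transcript, which it is known to cleave.

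The cluster was higher in neonatal cells, at a low level in both groups. Levels are given as CPM, the counts in 1000000 counts of a library, after TMM scaling (edgeR's trimmed mean of M values). All members together stood at 280.0, 226, 283 and 206 CPM in neonatal libraries 1 to 4 and at 116, 104, 100.3 and 93.3 CPM in adult libraries 1 to 4. Every neonatal library was thus above every adult one. The means were 249 ± 38.7 (SD, n = 4) and 104 ± 9.72 CPM, a 2.40-fold difference, or 1.26 on the log2 scale. As a share of all miRNA counts the cluster took 0.0312% ± 0.00630 in neonatal and 0.00831% ± 0.000755 in adult libraries, a 3.75-fold difference (1.91 on the log2 scale) without TMM scaling. In counts this was 525, 593, 650 and 576 in neonatal and 120, 149, 211 and 186 in adult libraries, from totals of 1281032 to 2606630 per library. A sum over chosen members was given no test.

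**Figure D1:**
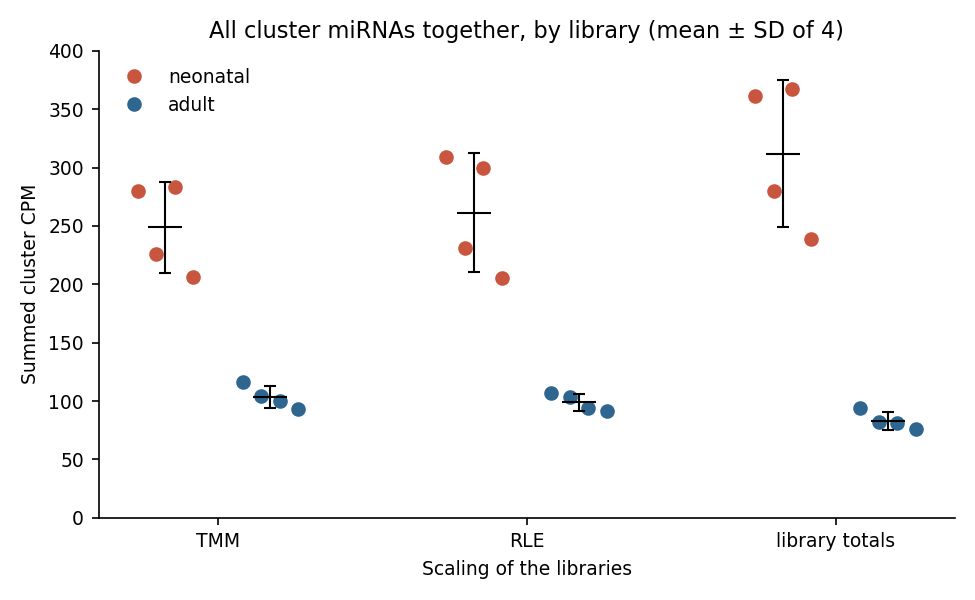
Summed CPM of all cluster miRNAs (y axis) in each of 4 neonatal and 4 adult libraries under 3 ways of scaling libraries (x axis); points are libraries, and bars mean ± SD. The neonatal points lie above the adult ones under each scaling, by 1.26 (TMM), 1.40 (RLE) and 1.91 (library totals) on the log2 scale.

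More members were seen in neonatal libraries. A neonatal library held a count for 26 to 30 of the 102 mature miRNAs and an adult one for 18 to 24. Over the whole table, too, more miRNAs had a count in a neonatal library (688 to 787) than in an adult one (608 to 685). Brought to the depth of the smallest library, the expected number was 27.0 ± 1.01 (SD, n = 4) in neonatal and 18.0 ± 1.51 in adult libraries. Depth here means the raw total of a library, so the difference in TMM factors between the ages was not taken out. The 4 members with the most counts, miR-369-3p, miR-127-3p, miR-543-3p and miR-409-3p, held 60.5% of all cluster counts. Small RNA kits ligate adapters with sequence preferences, so an order of levels between different miRNAs holds for these libraries only.

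For the test of single members, 10 mature miRNAs passed a filter of at least 5.09 CPM of raw counts in 4 of the 8 libraries. Of these, 9 rose in neonatal cells and none fell, with calls made by edgeR's quasi-likelihood test where the Benjamini-Hochberg adjusted p was under 0.05 (0 fell at an unadjusted p under 0.05 too, and 0 by DESeq2 or limma-voom). Over all 375 miRNAs tested, 29.1% rose and 34.1% fell. The median log2 fold change, neonatal over adult, was 1.47 among the 10 and -0.05 among the 375. These counts are a description: 2 of the 10 met the filter in all 4 adult libraries, and 7 met it in all 4 neonatal libraries but not in all adult ones, so members low in both groups had no chance to enter. With a filter chosen after seeing the data, a mean of at least 10 counts over all libraries, 9 of 10 members rose, against 30.9% of 372 miRNAs. There miR-382-5p entered and miR-433-3p left. High neonatal counts alone could carry a member past this filter too, as miR-382-5p had 89 counts over the neonatal and 13 over the adult libraries. For 7 of the 10 members tested every neonatal library was above every adult one, which was the case for 26.4% of all miRNAs tested.

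miR-369-3p, the most counted member, is known to bind the AU-rich element of the tumour necrosis factor messenger RNA. It stood at 67.2, 51.9, 51.8 and 52.9 CPM in neonatal libraries 1 to 4 and at 33.0, 37.8, 31.8 and 26.6 CPM in adult libraries 1 to 4. The groups did not overlap, and its means of 55.9 ± 7.52 and 32.3 ± 4.60 CPM (SD, n = 4 each) gave a log2 fold change of 0.80 ± 0.20 (SE; edgeR's adjusted p = 0.00323). This was the smallest change among the 9 members that rose, but it became 1.59 with a correction for GC content (1.54 with the replicate block as well), where miR-127-3p was lower at 0.91. miR-369-3p had the lowest GC content of the tested members, 23.8%.

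miR-127-3p, opposite Rtl1, stood at 35.7, 45.4, 63.1 and 36.1 CPM in neonatal libraries and at 23.3, 12.6, 23.3 and 15.0 CPM in adult ones. Its libraries did not overlap either, and it rose by 1.29 ± 0.27 (SE) on the log2 scale (edgeR's adjusted p = 0.00121). Along with miR-369-3p it was the only tested member that met the filter within the adult libraries alone.

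miR-433-3p, which also lies opposite Rtl1, stood at 5.33, 6.86, 7.84 and 5.00 CPM in neonatal and at 2.91, 2.10, 1.90 and 1.00 CPM in adult libraries. It rose by 1.72 ± 0.41 (edgeR's adjusted p = 0.00264) without overlap. The adult values rest on 2 to 4 counts per library, near the 3 counts that a count of 0 allows (1.43 to 2.91 CPM in adult and 1.07 to 1.60 CPM in neonatal libraries), so the size of the change is imprecise. These limits hold for counting error alone, because the reads carry no molecular identifiers and so need not be independent molecules.

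miR-493-5p, the most upstream member with more than a few counts, stood at 9.60, 11.4, 15.7 and 7.86 CPM in neonatal and at 1.94, 9.09, 4.75 and 5.02 CPM in adult libraries. Adult library 2 lay above neonatal library 4, so the groups overlapped. It rose by 1.06 ± 0.38 (edgeR's adjusted p = 0.0281), a call lost without neonatal library 3 or adult library 1, 3 or 4 (edgeR's adjusted p of 0.0767 to 0.0870).

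**Figure D2:**
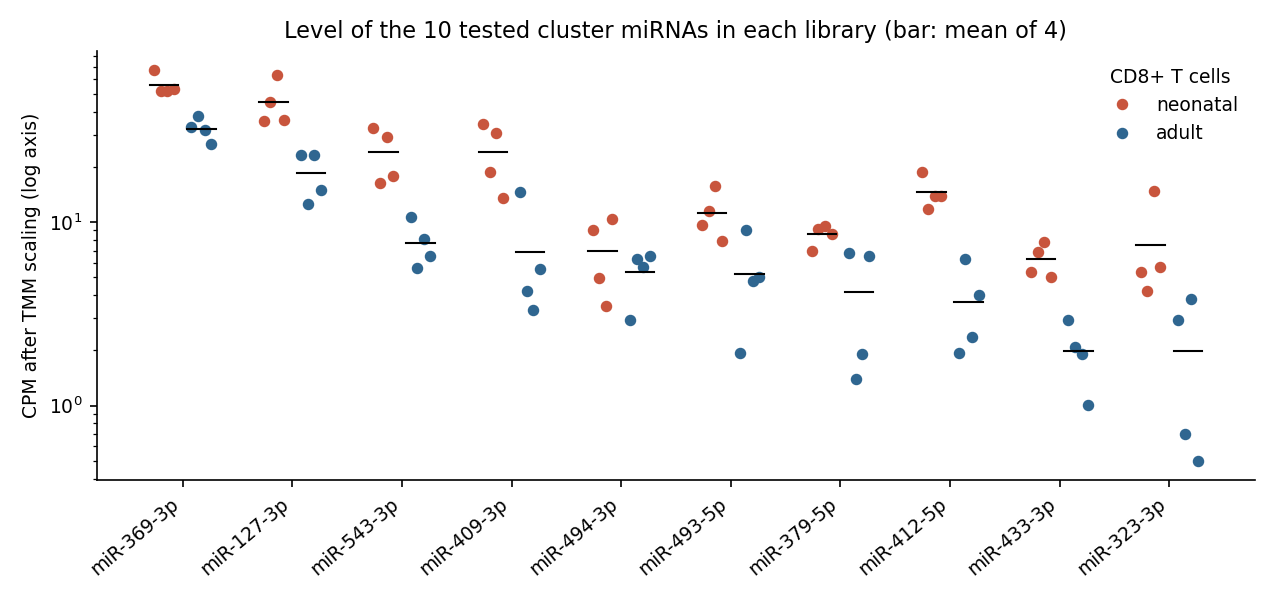
CPM after TMM scaling (log y axis) of the 10 tested cluster miRNAs (x axis, ordered by adult mean) in each of 4 neonatal and 4 adult libraries; points are libraries in the order 1 to 4, and black bars means. The neonatal points lie above all adult points for 7 of the 10, and overlap them for miR-409-3p, miR-493-5p and miR-494-3p.

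In the array from miR-379 to miR-410 the changes of tested members ran from 0.32 to 1.96 on the log2 scale. miR-543-3p stood at 32.5, 16.4, 29.2 and 17.9 CPM in neonatal and at 10.7, 5.60, 8.08 and 6.52 CPM in adult libraries. The groups did not overlap, and it rose by 1.65 ± 0.32 (edgeR's adjusted p = 0.000603). miR-412-5p stood at 18.7, 11.8, 13.9 and 13.9 CPM in neonatal and at 1.94, 6.30, 2.38 and 4.01 CPM in adult libraries. It rose by 1.96 ± 0.36 (edgeR's adjusted p = 0.000373). Its lowest neonatal library was above its highest adult one.

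miR-409-3p stood at 34.1, 18.7, 30.5 and 13.6 CPM in neonatal and at 14.6, 4.20, 3.33 and 5.52 CPM in adult libraries. It rose by 1.93 ± 0.44 (edgeR's adjusted p = 0.00211), with adult library 1 above neonatal library 4. The hairpins of miR-409, miR-412 and miR-369 lie next to each other in Mirg, 0.053 and 0.050 kb apart.

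For the remaining tested members of the array the calls were less firm. miR-323-3p stood at 5.33, 4.19, 14.8 and 5.72 CPM in neonatal and at 2.91, 0.700, 3.80 and 0.502 CPM in adult libraries, and rose by 1.89 ± 0.62 (edgeR's adjusted p = 0.0172). Neonatal library 3 stood apart as high, and without it the change was 1.35 and did not pass (edgeR's adjusted p = 0.0508), as was the case without adult library 4 (1.57, edgeR's adjusted p = 0.0620). Without adult library 3 the change was larger, at 2.68 (edgeR's adjusted p = 0.0123).

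miR-379-5p, encoded by the first hairpin of the array, stood at 6.93, 9.15, 9.58 and 8.58 CPM in neonatal and at 6.79, 1.40, 1.90 and 6.52 CPM in adult libraries. The groups lay next to each other without overlap, with adult libraries 1 and 4 close to the neonatal ones. It rose by 1.09 ± 0.43 (edgeR's adjusted p = 0.0414), and this call was lost without neonatal library 2 or 3 or adult library 2 or 3 (edgeR's adjusted p of 0.0692 to 0.122) and once GC content was corrected for (edgeR's adjusted p = 0.0616, or 0.0571 when replicate numbers were blocked as well).

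miR-494-3p was the tested member that did not pass. It stood at 9.07, 4.96, 3.48 and 10.4 CPM in neonatal and at 2.91, 6.30, 5.70 and 6.52 CPM in adult libraries, a log2 fold change of 0.32 ± 0.41 (edgeR's adjusted p = 0.511), with neonatal libraries 2 and 3 within the adult range.

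The arms of each hairpin were also summed and all hairpins tested anew, with their own TMM scaling. Of 11 cluster hairpins tested, 10 rose and none fell by edgeR (nor by DESeq2, and all 11 changes were above 0), against 36.4% of 319 hairpins that rose and 35.1% that fell. The median log2 fold change was 1.80 among the 11 and 0.03 among all. Again 2 of the 11 met the filter in all adult libraries, and 8 met it in all neonatal libraries but not in all adult ones. Without a filter 15 of the 31 hairpins with a count rose, against 19.5% of 753. miR-411, whose arms were too low to be tested singly, had 14, 14, 10 and 16 counts in neonatal and 1, 3, 1 and 7 in adult libraries. It rose by 1.80 ± 0.53 (edgeR's adjusted p = 0.00953), and its neonatal range lay above the adult one. The other hairpins that rose did so by 1.02 (miR-369), 1.26 (miR-493), 1.45 (miR-379), 1.53 (miR-127), 1.89 (miR-543), 1.94 (miR-433), 2.09 (miR-409), 2.17 (miR-412) and 2.20 (miR-323) on the log2 scale. miR-494 again did not pass (0.51 ± 0.41, edgeR's adjusted p = 0.285). The groups did not overlap for 9 of the 11, as was true with neonatal above adult for 30.1% of all hairpins tested. For miR-409, among the 9, the lowest neonatal and highest adult library were almost equal (13.228 and 13.225 CPM).

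**Figure D3:**
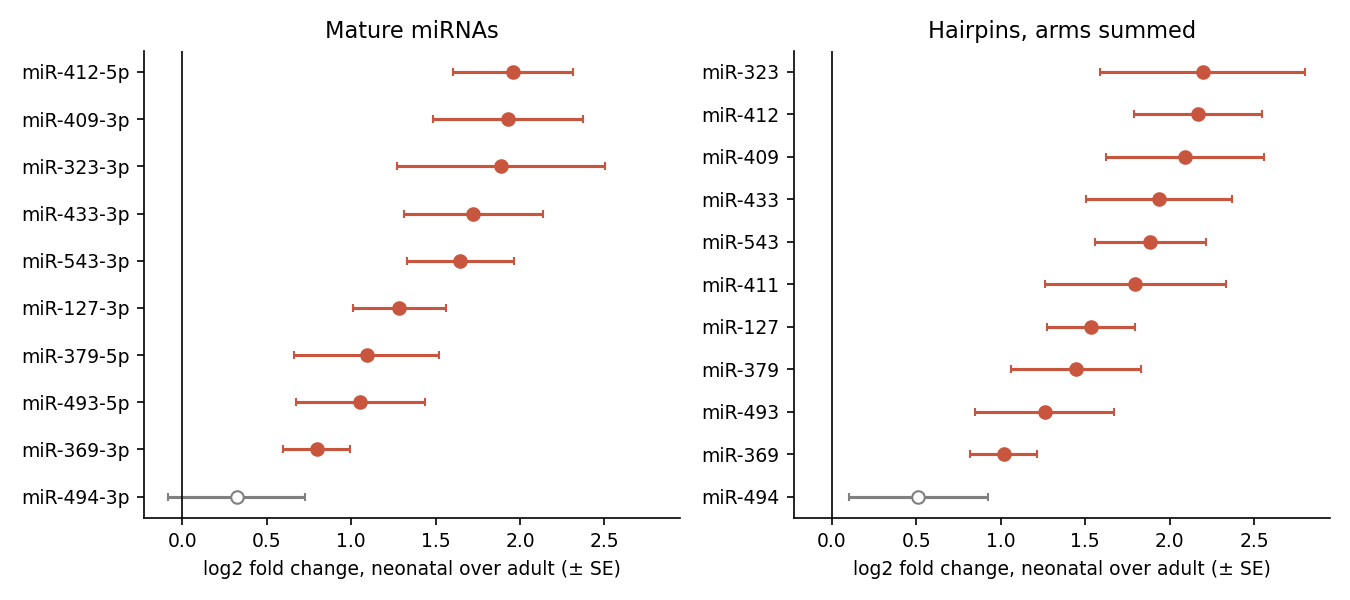
Log2 fold change, neonatal over adult, with its standard error (x axis) for the 10 tested mature miRNAs (left) and 11 hairpins with arms summed (right); filled points passed edgeR's adjusted p under 0.05, and open points did not. All points lie above 0, and miR-494 is the open point in both panels.

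Of the 32 members with a count that were not tested, 26 had the higher mean CPM in neonatal and 6 in adult libraries. The share over all untested miRNAs was not taken. Over the whole table, too, more miRNAs had a count in neonatal libraries (688 to 787) than in adult ones (608 to 685). The 26 are therefore not read as a trait of the cluster. The 32 untested members held 417 counts over the neonatal and 102 over the adult libraries, and 16 of them had at most 5 counts in all. The arms of miR-411 were among the 6 with the most counts, beside miR-382-5p, miR-495-3p, miR-410-3p and miR-299a-3p. miR-411-3p had 11, 6, 4 and 7 counts in neonatal libraries, and in adult ones 6 in library 4 and none in the other 3. miR-411-5p had 3, 8, 6 and 9 counts in neonatal and 1, 3, 1 and 1 in adult libraries.

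miR-382-5p stood just outside the filter, with 4.97 CPM of raw counts in its lowest neonatal library against the limit of 5.09, while miR-323-3p, just inside, had 5.20. Its levels were 14.9, 11.4, 8.27 and 4.29 CPM in neonatal and 2.91, 0.700, 2.38 and 2.01 CPM in adult libraries. They did not overlap, and with the filter on the mean count it rose by 2.32 ± 0.52 (edgeR's adjusted p = 0.00201).

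For the untested miR-410-3p, miR-495-3p and miR-299a-3p the libraries of the ages overlapped. miR-410-3p, beside miR-369 at the end of the array, had 4, 8, 8 and 11 counts in neonatal and 4, 5, 3 and 4 in adult libraries, or 3.15 ± 0.767 and 2.70 ± 1.17 CPM (SD, n = 4). miR-495-3p stood at 5.18 ± 2.31 and 3.35 ± 1.24 CPM with overlapping libraries. miR-299a-3p, at 1.75 ± 1.30 and 1.61 ± 1.43 CPM, lies opposite miR-299b, and 1 read was split between them in the deposited table.

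Without a filter on low counts, 15 of 42 members rose and none fell by edgeR (0 fell at an unadjusted p under 0.05), against 15.8% of 1025 miRNAs that rose and 12.2% that fell. Those added to the 9 were miR-382-5p and 5 others: miR-381-3p, miR-434-3p, both arms of miR-485, and miR-541-5p, named after their values were seen. miR-434-3p had 18 counts over the neonatal and 1 over the adult libraries, miR-381-3p 17 and 1, miR-485-5p 19 and 1, and miR-485-3p 21 and 2. miR-541-5p had 10, 0, 2 and 4 counts in neonatal libraries 1 to 4 and none in adult ones, so that 1 library held most of its reads. At this depth such members can be seen to be present in neonatal libraries, while their fold change cannot be sized.

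After rounding, the other 60 arms had no count in any library, and 21 hairpins had none on either arm. miR-376a, miR-376b, miR-376c, miR-154, miR-377, miR-539 and miR-431 were among these hairpins. The 5 further RefSeq hairpins of the same stretch that the table holds but the list does not (miR-341, miR-882, miR-1188, miR-3071 and miR-3544) had no count either. A count of 0 allows up to 3 counts, so lower levels were not detectable in these libraries.

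**Figure D4:**
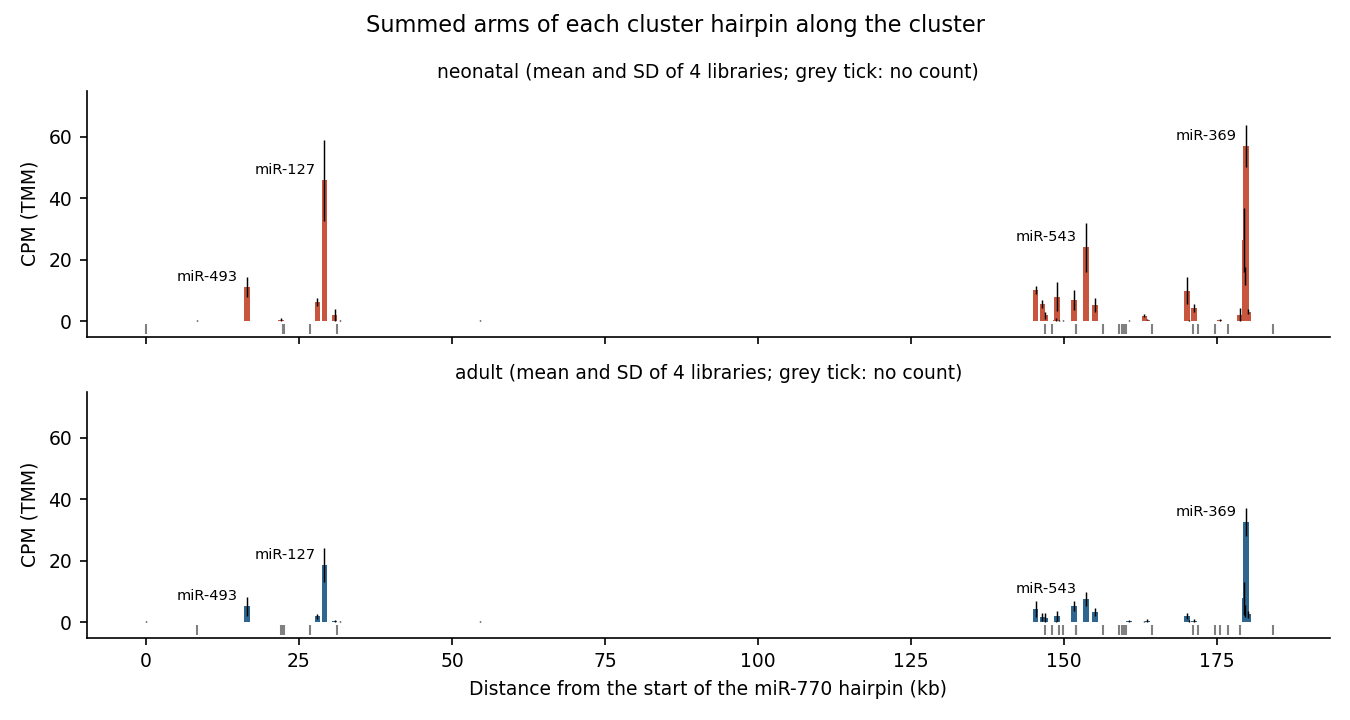
Summed arms of each of 50 positioned cluster hairpins (y axis, CPM after TMM scaling, bars mean with SD of 4 libraries) against distance from the start of the miR-770 hairpin (x axis, kb), for neonatal (top) and adult (bottom) libraries; grey ticks are hairpins with no count in that group, and the bars of miR-409, miR-412 and miR-369 overlap near 179 kb. Both groups show signal at miR-493 and miR-127 and across the array that starts at 145 kb, with taller neonatal bars.

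Both sides of the gap were higher in neonatal libraries. The 13 hairpins near Meg3 and Rtl1 summed to 66.1 ± 17.5 CPM in neonatal libraries and 26.6 ± 3.72 CPM in adult ones, 1.31 on the log2 scale. The 39 hairpins of the array summed to 183 ± 32.5 and 76.9 ± 8.27 CPM, or 1.25. Those in exons of Mirg stood at 118 ± 23.9 and 49.6 ± 8.35 CPM (1.24), and those opposite Rtl1 at 54.4 ± 13.9 and 21.2 ± 6.08 CPM (1.36). These sums were not tested, and each rests mostly on 1 or a few members. The hairpins inside Meg3 (miR-770) and Rian (miR-370) had 1 and 2 counts in all.

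Among the 10 most counted members, miR-369-3p was the one whose share of the cluster did not overlap between the ages. It took 24.0%, 22.9%, 18.3% and 25.7% of cluster counts in neonatal and 28.3%, 36.2%, 31.8% and 28.5% in adult libraries. The neonatal shares were the lower ones. A share within a library is free of library scaling, but it holds no correction for GC content, which moved the fold change of miR-369-3p as given above. The share of miR-127-3p was 18.2% ± 4.10 (SD, n = 4) in neonatal and 17.9% ± 4.82 in adult libraries. The shares of the other 8 overlapped between the ages as well. Shares of the lower members were not compared, and no share was tested.

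Each hairpin mostly gave reads from 1 arm. Among the 17 hairpins with at least 20 counts, 13 had more counts on the 3p arm and 4 on the 5p arm, and in 14 the leading arm held over 90% of the counts. miR-543, miR-494, miR-433, miR-495 and miR-410 gave 3p reads only, and miR-412 and miR-493 5p reads only. The exceptions were miR-411, with 32 counts on 5p and 34 on 3p, miR-485, with 20 and 23, and miR-379, where 5p held 86.5%. In miR-411 the 5p arm took 48.1% of neonatal and 50.0% of adult counts. Over the cluster 3p arms took 77.5% of neonatal and 82.3% of adult counts.

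The other imprinted miRNA loci did not all move with the cluster. The miR-297, miR-466, miR-467 and miR-669 series stood for the array in an intron of Sfmbt2, an imprinted gene on another chromosome. They were taken by name, and their positions were not checked. Of these, 26 of 29 tested miRNAs fell and none rose, with a median log2 fold change of -1.43. The 29 need not be separate measurements, as miR-466a-3p and miR-466e-3p had the same adult values (7.76 ± 0.626 CPM, SD). All 3 tested miRNAs of the imprinted Gnas locus rose, with miR-298-5p up by 3.39, miR-296-3p by 1.23 and miR-296-5p by 0.77. miR-335-5p, from Mest, stood at 0.86 ± 0.60 and did not pass (edgeR's adjusted p = 0.228). Neither arm of the H19 miRNA miR-675 had a count, and those of the Igf2 miRNA miR-483 had 20 counts over the neonatal and 2 over the adult libraries. The difference between loci was not tested.

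Several miRNAs of other cell types moved in the same direction. The lymphocyte miRNAs were abundant in every library. miR-150-5p averaged 54280 ± 2741 CPM at the neonatal age and 140425 ± 37899 CPM in adults, and 5 of 6 on that list fell. No miRNA is specific to CD8+ T cells, so the label itself could not be checked. Of erythroid miRNAs, 3 of 5 were tested and rose. The list summed to 308 to 774 CPM in neonatal libraries and 120 to 251 CPM in adult ones. The 3 need not be separate measurements, as miR-486a-5p and miR-486b-5p had nearly equal means. These were 257 and 267 CPM at the neonatal age, against 72.6 and 76.0 CPM in adults. The erythroid sum may thus hold the same reads more than once. Both endothelial miRNAs rose (125 to 160 against 46.6 to 76.9 CPM), as did the 3 tested of 7 stromal ones (117 to 174 against 38.5 to 87.3 CPM). Of the 4 stromal miRNAs not tested, adult means were above neonatal ones for miR-199a-5p (3.00 against 1.19 CPM), miR-199b-5p (3.77 against 2.45) and miR-145a-5p (0.668 against 0.413), and miR-214-3p stood at 2.62 against 2.70 CPM. The 5 neuronal ones summed to 8.01 to 12.9 against 7.13 to 11.9 CPM, with 1 tested, miR-9-5p, which rose. Of the others miR-219a-5p had the higher mean in adult libraries (5.08 against 1.94 CPM). The neonatal mean was the higher one for miR-138-5p (1.33 against 0.300 CPM) and miR-9-3p (0.886 against 0.426 CPM), on 15 and 11 counts in all. miR-124-3p had 1 count in all. The 2 myeloid ones summed to 3.48 to 8.53 against 2.85 to 9.09 CPM and were not tested. Of muscle and liver miRNAs, miR-122-5p rose and the other 2 tested did not pass (list sum 757 to 1596 against 249 to 408 CPM). Nearly all of this sum was miR-122-5p, with means of 1200 against 285 CPM. The other 2, miR-1a-3p (4.56 against 4.04 CPM) and miR-133a-3p (7.12 against 5.04 CPM), were low at both ages. The part of other cells in the cluster's difference was not tested, and in bulk RNA more cells of a type and more miRNA per cell cannot be told apart.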

How the data were processed

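The 8 small RNA libraries, 4 per age group, were made with the NEBNext kit for small RNA, per the labels' protocols. The authors' deposited table holds estimated counts for each mature miRNA of each precursor, without normalization. The genome build is mm10, per the submitters' processing notes, while aligner, counting tool and miRNA release were not given in the sources used here. Counts were summed over precursors (or over arms, for hairpins) and rounded. Before this, 71.4% of non-zero values were whole within 0.001.

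edgeR 4.0.16 (R 4.3.3) was run over all miRNAs with filterByExpr (minimum count 10, minimum total 15), TMM scaling, robust dispersions and age group in the model. Benjamini-Hochberg adjustment ran over the whole table, and each SE is the log2 fold change divided by the root of F. The edgeR fit was also run on simulated data. These held planted changes of both signs and no shift between the ages like that of the TMM factors, so they do not cover such a shift. Neonatal TMM factors lay at 1.16 to 1.30 and adult ones at 0.788 to 0.812. Using library totals instead raised log2 fold changes by a median of 0.63. No library was a copy of another of its group (chi-square of 19.1 to 450 per degree of freedom). Same-numbered libraries deviated together (r = 0.256 to 0.415 in all 4 pairs), but unlike numbers reached r = 0.482, so this check does not establish pairing. The main fit was unpaired, and the replicate number entered only as a block in alternatives. The alternatives used limma 3.58.1 (voom), DESeq2 1.42.0, other scalings and filters, a GC offset (GC content found for 83.7% of 375 miRNAs), the replicate block, and leaving out each library.

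Positions and sequences came from RefSeq (GRCm38.p6, the assembly of mm10; 98 of 102 members matched a mature sequence, 50 of 52 hairpins a position) and host genes from GENCODE M21. The members, lists and tests were chosen with earlier results of these data known. The rule for naming took every tested member miRNA and hairpin and the 6 untested ones with the most counts.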

Additional observations from a re-analysis of the deposited data

Results flagged for a closer look

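Among 44 groups of 4 values examined (the tested mature miRNAs, the tested hairpins and the cluster total, in each age), 3 held a library whose gap to the nearest other one exceeded Dixon's 95% critical value for 4 samples, taken as a share of the group's range. Chance gives this in about 1 in 20 groups. miR-323-3p was at 14.8 CPM in neonatal library 3, where the other neonatal libraries were at 4.19 to 5.72 CPM. miR-369-3p was at 67.2 CPM in neonatal library 1, above 3 neonatal libraries between 51.8 and 52.9 CPM. The miR-369 hairpin was at 39.5 CPM in adult library 2, above 26.9 to 28.1 CPM in the other adult libraries.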

How the results depend on the processing

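The number of cluster miRNAs called higher was 9 under RLE scaling, library totals, DESeq2, limma-voom, the replicate block and the filter on the mean count (chosen after seeing the data). With the GC offset it was 8, with or without the block. Taking members by position could not change the number, because the hairpins this added had no count. The number called higher was 15 without a filter, where 42 members were tested, and 5 with at least 10 CPM in 4 libraries, where 5 were tested. Leaving out 1 library gave 7 to 10, where 9 to 12 members were tested. It was 7 of 11 without neonatal library 3, 8 of 12 without adult library 3 or 4, and 10 of 10 without neonatal library 4. Over all miRNAs tested, 29.1% were called higher in the main fit, 15.8% without a filter and 30.9% with the filter on the mean count. Such shares were not taken for the other settings, so those counts of calls stand without them. Library totals also raised log2 fold changes over the whole table, by a median of 0.63. Cluster hairpins called higher numbered 15 without a filter and 10 under the other settings tried. When 1 library was left out they numbered 10 to 11, where 10 to 13 were tested. No alternative called a member lower. The replicate number as a block changed no call among the 10 miRNAs and 11 hairpins of the cluster that were tested. The log2 ratio of the cluster total went from 1.26 to 1.91 with library totals, to 1.44 without miR-369-3p, and to 1.20 to 1.34 when 1 library was left out. Of 171 alternative values of the tested members none changed direction and 12 lost a call, all of them for miR-323-3p, miR-379-5p or miR-493-5p. Depth limits the rest: most members had under 10 counts per library.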
